A study of Mus musculus with 14 samples.

Results

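The genes of glycolysis and glycogen metabolism were read in overloaded mouse muscle, with muscle forms set against the forms that predominate in other tissues. A list of 40 genes was taken, and a gene entered where the array's annotation gave its symbol alone to a probe set. That held for 38 of the 40 among 19938 genes tested, and Gpi1 and Pfkfb1 are not analysed here. By textbook site of expression 15 of the 38 were placed as muscle or muscle-enriched forms, 14 as forms of other tissues and 9 as shared forms. The classes are approximate, since Aldoa and Ldha are widely expressed and Ldhb is also the form of heart and of oxidative muscle fibres.

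Glycolysis splits glucose into lactate or pyruvate and supplies fast muscle fibres with ATP during short, intense work. Glycogen is the branched glucose store of the fibre. Glycogen synthase builds it, and glycogen phosphorylase, switched on by phosphorylase kinase, breaks it down when the fibre contracts. Many of the steps are run by families of paralogous enzymes. Adult fibres use one set, while leukocytes, fibroblasts, liver, brain and dividing cells use others that differ in glucose affinity, in regulation and in the reaction direction they favour.

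RNA came from the plantaris, a fast hindlimb muscle, of male C57BL/6J mice aged 25 months. Overload was set by synergist ablation: the gastrocnemius and soleus were cut out, and the plantaris carried their load. Muscles were taken on days 0, 1, 3, 5, 7, 10 and 14, with day 0 labelled healthy, and on each day the left muscles and the right muscles of 6 animals formed separate pools, giving 14 Affymetrix arrays. No sham-operated or younger mice are analysed here. The pools of a day appear to come from the same animals, so day and animals cannot be told apart, and p-values rest on the spread between the sides of a day, which is partly technical. RNA input is given as 100 ng in one description and 250 ng in another.

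Signals were on a log2 scale, on which a difference of 1 is a doubling. They ran from 2.35 to 14.8, with array medians between 7.91 and 7.97, and the 2 sides of any day had an r of 0.994 to 0.997 across genes. Differences are given as log2 differences from day 0 ± SE with n = 2 arrays a day, and a change was called where limma's Benjamini-Hochberg adjusted p over all genes was under 0.05. Probe sets differ in how brightly they bind, so levels of different genes are not compared, only their changes. The array measures RNA per unit of tissue RNA, and fewer fibres and less RNA per fibre cannot be told apart.

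Over the days all 38 genes differed by limma's F test, against 79.5% of all genes tested. On day 1, 10 of the 38 rose and 15 fell, where 22.3% of all genes rose and 22.6% fell. On day 3, 9 rose and 21 fell (24.1% and 26.6% of all genes). On day 5, 9 rose and 28 fell (26.4% and 33.7%). On day 7, 8 rose and 28 fell (26.6% and 36.3%), and on day 10 the counts were again 8 and 28 (25.9% and 34.3%). On day 14, 6 rose and 26 fell (22.9% and 30.5%). The share of genes that rose lay near the background on most days, and the share that fell lay above it on every day. The median difference of the 38 genes was -0.20, -0.34, -0.67, -0.97, -0.87 and -0.61 on the 6 days in turn, and that of all genes ran from 0.04 on day 1 to -0.14 on day 7.

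The classes moved apart. Of the 15 muscle forms 9 fell and 1 rose on day 1, 14 fell on day 3, all 15 fell on days 5, 7 and 10, and 14 fell on day 14. Their median was -0.57 on day 1, -1.27 on day 5, -1.45 on day 7 and -1.06 on day 14. Of the 14 forms of other tissues 9 rose on each of days 1, 3 and 5, and 8, 7 and 5 rose on days 7, 10 and 14. Only 2 of these 14, Pfkfb3 and Ldhb, fell on days 1 and 3, and 5 fell on each later day. Their median went from 0.77 on day 1 to -0.15 on day 14. Of the 9 shared forms 8 fell on days 5, 7 and 10. Genes that fell on all 6 days numbered 14, and 2 genes, Pfkl and Pfkp, rose on all 6. How many of all genes tested did either was not counted, so these counts have no background. Hk2, Pfkfb4, Slc2a3 and Slc16a1 rose on day 1 and fell on days 5 to 14.

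**Figure D1:**
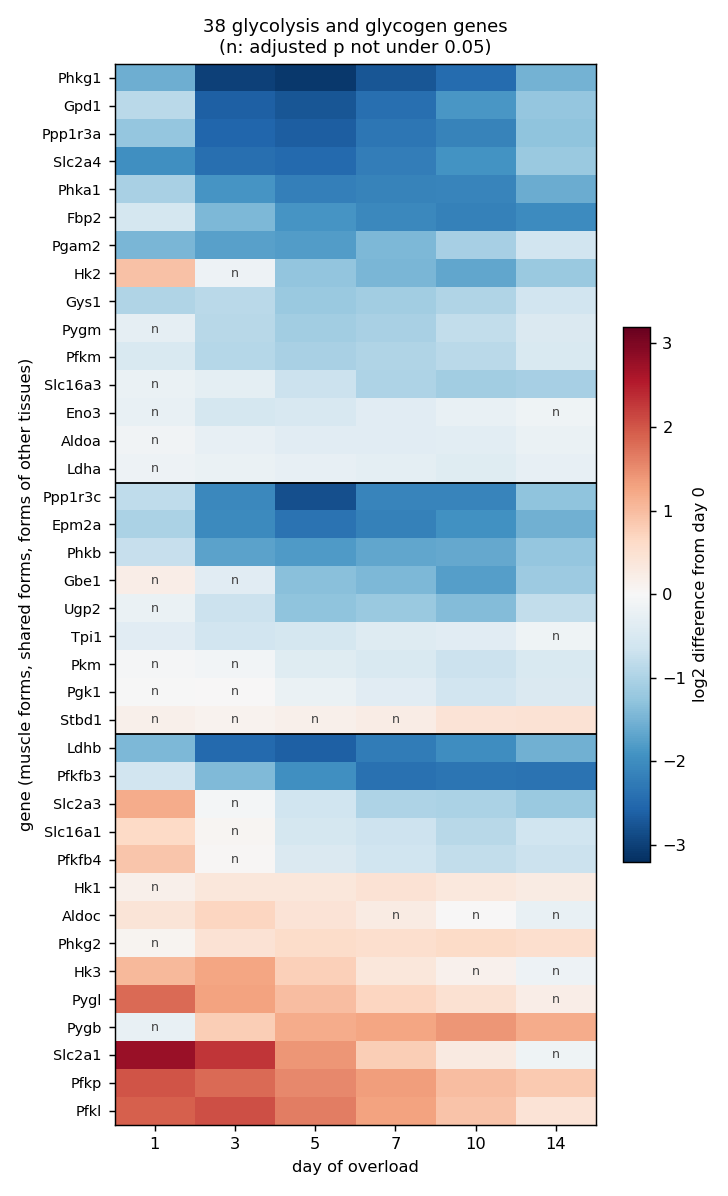
Log2 difference from day 0 of 38 genes (vertical axis, muscle forms at the top, then shared forms, then forms of other tissues, each ordered by day 5) on 6 days of overload (horizontal axis). Blue is lower, red is higher, and n marks an adjusted p not under 0.05. The top block is blue on nearly every day except for Hk2 on day 1, and the bottom rows are red, with 9 of 14 forms of other tissues higher on day 5.

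Between days 5 and 14 the split narrowed. Compared with day 5, 16 of the 38 genes were higher on day 14 and 10 were lower, where 13.1% and 14% of all genes were. Of the muscle forms 10 were higher and 1, Slc16a3, was lower. Of the forms of other tissues 8 were lower and 1, Ldhb, was higher. Without the right array of day 5, which leaves 1 array for that day, fewer genes were called higher and fewer were called lower.

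**Figure D2:**
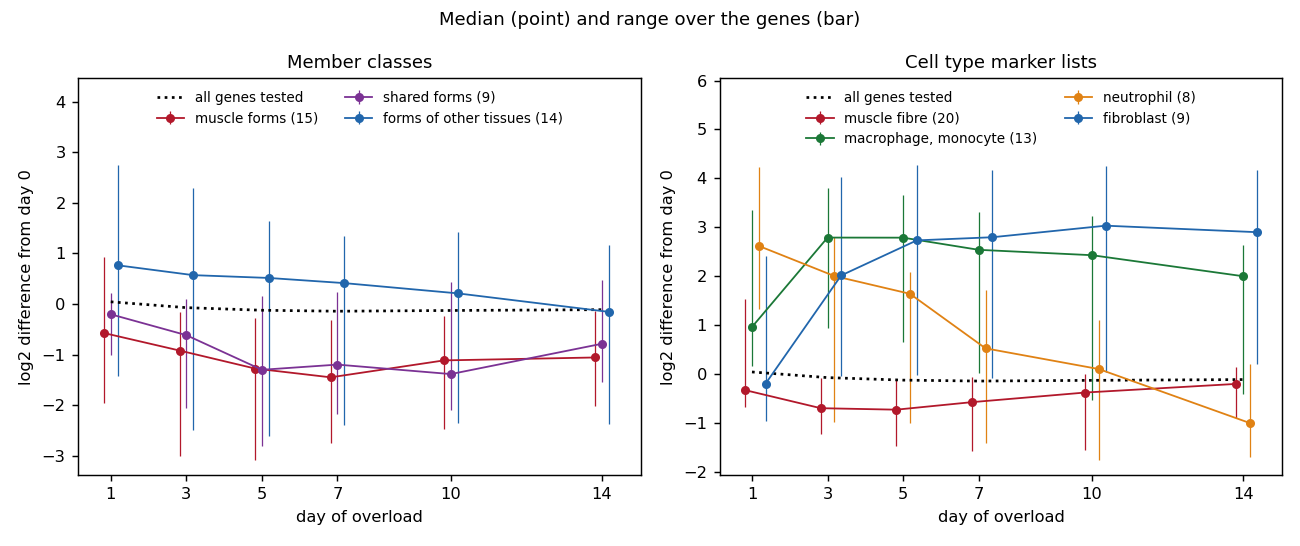
Median (points) and full range over the genes (bars) of the log2 difference from day 0 by day of overload, for the classes of glycolysis and glycogen genes on the left and for 4 cell type marker lists on the right, with the median of all genes tested dotted. The muscle forms had their lowest median, -1.45, on day 7 and the fibre markers theirs, -0.73, on day 5. Most fibre markers were read near the top of the array's range, so the sizes of these falls are not compared. The forms of other tissues had their highest median, 0.77, on day 1. On that day the medians of neutrophil, macrophage and fibroblast markers were 2.62, 0.96 and -0.19. On day 14 the forms of other tissues had a median of -0.15. The macrophage median was then still positive and the neutrophil median negative. A link between these courses was not tested.

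The transporters of glucose moved in different directions. Slc2a4 encodes GLUT4, the insulin- and contraction-responsive transporter of muscle and fat. Its log2 signal in the left and right pools was 12.78 and 12.67 on day 0, 10.78 and 10.75 on day 1, 10.48 and 10.15 on day 3, 10.51 and 9.99 on day 5, 10.74 and 10.30 on day 7, 10.97 and 10.65 on day 10, and 11.68 and 11.37 on day 14. Every overloaded array lay below both day 0 arrays. The gene fell by 1.96 ± 0.19 on day 1 (3.88-fold, adjusted p = 3.67e-06) and by 2.48 ± 0.19 on day 5 (5.57-fold, adjusted p = 2.71e-07), and by 1.20 ± 0.19 on day 14.

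Slc2a1 encodes GLUT1, the basal transporter of most proliferating and blood-derived cells. Its signal was 10.80 and 10.66 on day 0, 13.47 and 13.49 on day 1, 12.98 and 13.07 on day 3, 12.13 and 12.14 on day 5, 11.45 and 11.59 on day 7, 11.04 and 10.99 on day 10, and 10.58 and 10.59 on day 14. The arrays of days 1 to 10 lay above both day 0 arrays and those of day 14 lay below them. The gene rose by 2.30 ± 0.08 on day 3 (4.92-fold) and by 0.29 ± 0.08 on day 10 (adjusted p = 0.00698), after its highest level on day 1, 6.74-fold above day 0. On day 14 its difference was -0.14 ± 0.08 (adjusted p = 0.139). Its promoter, the 250 bases before the start of transcription at chr4:119108495-119108744 (plus strand, GRCm38.p6, from RefSeq), is shown because it holds ACGTG, the core that hypoxia-inducible factor binds, in capitals; a match of letters does not show binding.
Slc2a1: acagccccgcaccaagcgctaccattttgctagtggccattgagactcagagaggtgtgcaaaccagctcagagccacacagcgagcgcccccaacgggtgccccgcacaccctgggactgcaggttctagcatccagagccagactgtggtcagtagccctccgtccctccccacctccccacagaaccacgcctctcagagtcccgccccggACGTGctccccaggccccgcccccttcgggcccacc

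Slc2a3, the high-affinity transporter GLUT3 of neurons and leukocytes, followed another course. It stood at 9.76 and 9.61 on day 0, 10.87 and 10.89 on day 1, 9.39 and 9.83 on day 3 and 8.42 and 8.56 on day 14. It rose by 1.19 ± 0.13 on day 1, overlapped day 0 on day 3, and then fell, by 0.64 ± 0.13 on day 5 and 1.20 ± 0.13 on day 14 (adjusted p = 7.75e-06). The lactate exporter of fast fibres, Slc16a3 (MCT4), fell from day 3 on, by 0.31 ± 0.09 on day 3, 1.11 ± 0.09 on day 10 and 1.06 ± 0.09 on day 14. Slc16a1 (MCT1), which takes lactate into oxidative fibres and other cells, rose by 0.64 ± 0.09 on day 1, and by day 10 it had fallen below day 0 (-0.88 ± 0.09, adjusted p = 3.45e-06). Slc16a3 was the 1 muscle form that was lower on day 14 than on day 5.

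**Figure D3:**
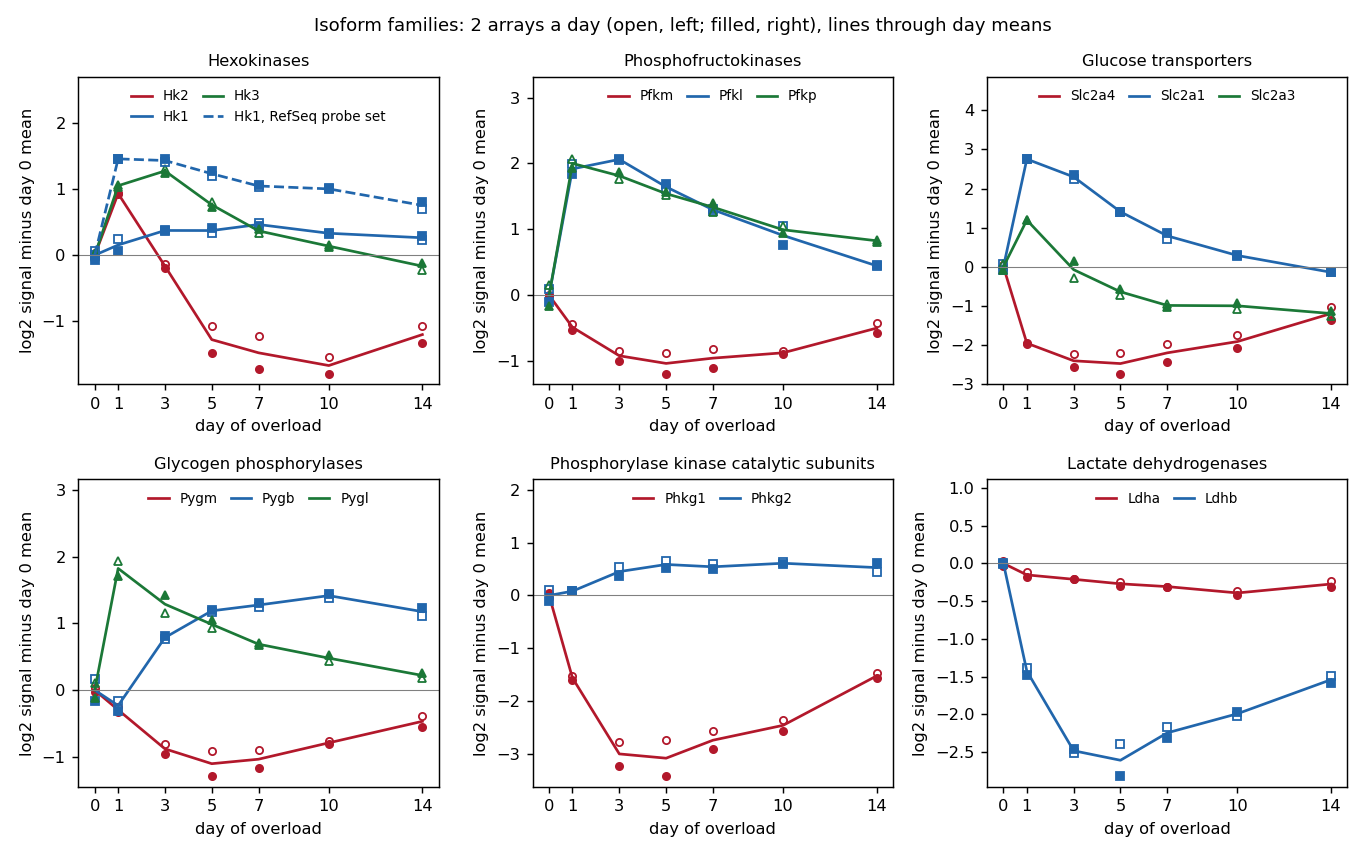
Log2 signal minus the day 0 mean in 6 isoform families against day of overload, with an open symbol for the left array, a filled symbol for the right array and lines through the day means; red marks the muscle form. Pfkl, Pfkp, Slc2a1 and Pygl stand highest on day 1 or 3 while Pfkm, Slc2a4, Pygm and Phkg1 stand below 0 on every day after day 0, and among the lactate dehydrogenases Ldhb shows the larger fall.

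Hexokinases trap glucose in the cell by phosphorylating it. Hk2, the main form of insulin-responsive muscle, was at 11.70 and 11.77 on day 0, 12.67 and 12.65 on day 1, 11.60 and 11.53 on day 3, 10.66 and 10.26 on day 5, 10.51 and 10.01 on day 7, 10.19 and 9.95 on day 10, and 10.67 and 10.40 on day 14. It was thus above both day 0 arrays on day 1 and below both afterwards. The rise on day 1 was 0.93 ± 0.16 (adjusted p = 4.66e-04), differed by -0.16 ± 0.16 on day 3 (adjusted p = 0.431) and fell by 1.66 ± 0.16 on day 10 (3.17-fold, adjusted p = 2.68e-06). Hk3, the form of myeloid cells, rose by 1.05 ± 0.07 on day 1 and 1.27 ± 0.07 on day 3 (2.41-fold, adjusted p = 2.29e-08) and by 0.37 ± 0.07 on day 7. On day 14 it stood at -0.17 ± 0.07 (adjusted p = 0.0645).

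Hk1, the form of brain and red blood cells, was read by 2 probe sets that gave different sizes of change. The brighter one, used by the common rule, rose by 0.37 ± 0.07 on day 3 and 0.46 ± 0.07 on day 7. Its annotation rests on a transcript record that is also cited by all 16 probe sets assigned to both Hk1 and Rpl17, a ribosomal protein gene, so it may not read Hk1. The other probe set, annotated with RefSeq transcripts and chosen after the values were seen, was at 8.85 and 8.71 on day 0 and 10.23 on both arrays of day 1. It rose by 1.45 ± 0.07 on day 1 and by 0.75 ± 0.07 on day 14 (adjusted p = 4.38e-06).

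Phosphofructokinase commits sugar to glycolysis. Pfkm, the muscle subunit, was at 14.03 and 14.01 on day 0, 13.58 and 13.48 on day 1, 13.18 and 13.02 on day 3, 13.14 and 12.83 on day 5, 13.21 and 12.92 on day 7, 13.17 and 13.12 on day 10, and 13.60 and 13.44 on day 14. It fell on every day, by 1.03 ± 0.12 on day 5 (2.05-fold, adjusted p = 8.29e-06) and 0.50 ± 0.12 on day 14. The signal of Pfkm lay close to the top of the array's range, where differences can be compressed.

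Both other subunits went the opposite way. Pfkl, the liver subunit, was at 8.52 and 8.32 on day 0, 10.41 and 10.26 on day 1, 10.47 and 10.49 on day 3, 10.03 and 10.10 on day 5, 9.70 and 9.73 on day 7, 9.47 and 9.18 on day 10, and 8.86 and 8.88 on day 14. Pfkp, the platelet subunit, which is also high in many dividing cells, was at 8.90 and 8.58 on day 0, 10.80 and 10.68 on day 1, 10.50 and 10.61 on day 3, 10.26 and 10.30 on day 5, 10.01 and 10.14 on day 7, 9.79 and 9.68 on day 10, and 9.58 and 9.55 on day 14. For both genes no overloaded array overlapped day 0. Pfkl rose by 2.06 ± 0.10 on day 3 (4.18-fold, adjusted p = 8.55e-09) and still by 0.45 ± 0.10 on day 14 (adjusted p = 0.00284). Pfkp rose by 2.0 ± 0.10 on day 1 (4.0-fold, adjusted p = 1.88e-08) and by 0.83 ± 0.10 on day 14.

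The enzymes that tune this step fell over the longer course. Pfkfb3, an inducible enzyme that makes the sugar bisphosphate that activates phosphofructokinase, was at 11.63 and 11.84 on day 0 and at 9.38 and 9.37 on day 14. It fell by 0.62 ± 0.10 on day 1 and by 2.40 ± 0.10 on day 7 (5.26-fold, adjusted p = 2.89e-09), and on day 14 it was lower than on day 5 (adjusted p = 0.0105). Pfkfb4, its testis and hypoxia-inducible relative, rose by 0.89 ± 0.10 on day 1 and stood below day 0 on day 10 (-0.78 ± 0.10, adjusted p = 2.39e-05). Fbp2, the muscle fructose bisphosphatase that runs the step backwards and serves glycogen synthesis from lactate, was at 9.71 on both day 0 arrays and at 7.48 and 7.61 on day 10. It fell by 2.16 ± 0.11 on day 10 (4.48-fold, adjusted p = 8.25e-09) and by 2.02 ± 0.11 on day 14, and days 5 and 14 overlapped. Neither Fbp2 nor Pfkfb3 was nearer to its day 0 level on day 14 than on day 5.

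Measured changes were smaller for several enzymes of the lower pathway. Aldoa, Eno3, Tpi1, Pgk1 and Pkm had day 0 means of 13.09 to 14.27. These lie close to the top of the array's range, where differences can be compressed. Aldoa, the muscle aldolase, fell by 0.37 ± 0.07 on day 5 (1.29-fold) from 14.27 and 14.28 on day 0, and Eno3, the muscle enolase, by 0.57 ± 0.09 on day 3 (1.49-fold). Tpi1, triose phosphate isomerase, fell by 0.61 ± 0.08 on day 3, and Eno3 and Tpi1 no longer differed by the test on day 14 (-0.13 ± 0.09 and -0.14 ± 0.08). Pgk1, phosphoglycerate kinase, fell from day 5 on, by 0.61 ± 0.08 on day 10. Its transcript has near-identical copies in the genome, so the reading is uncertain. Pkm, the pyruvate kinase gene that makes a muscle and an embryonic splice form which the probe set does not separate, fell by 0.68 ± 0.09 on day 10. Aldoc, the brain aldolase, rose by 0.69 ± 0.11 on day 3 (adjusted p = 1.75e-04) and was at -0.25 ± 0.11 on day 14 (adjusted p = 0.0764).

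Pgam2, the muscle phosphoglycerate mutase, showed a larger measured fall than these neighbours, from a lower day 0 signal. It was at 12.69 and 12.91 on day 0, 11.39 and 11.31 on day 1, 11.23 and 10.88 on day 3, 11.30 and 10.73 on day 5, 11.54 and 11.17 on day 7, 11.81 and 11.69 on day 10, and 12.19 and 12.18 on day 14. It fell by 1.45 ± 0.18 on day 1 and by 1.79 ± 0.18 on day 5 (3.45-fold, adjusted p = 2.39e-06). Pgam1, the brain and ubiquitous form, which is not among the 38, rose by 2.37 ± 0.11 on day 3 (5.17-fold, adjusted p = 7.43e-09) and by 0.74 ± 0.11 on day 14. The Pgam2 promoter (chr11:5803797-5804046, minus strand, GRCm38.p6, from RefSeq) is shown because it is one of 2 among the muscle forms with a MEF2 motif, and capitals mark that motif and each E-box CANNTG, the letters that myogenic factors recognise.
Pgam2: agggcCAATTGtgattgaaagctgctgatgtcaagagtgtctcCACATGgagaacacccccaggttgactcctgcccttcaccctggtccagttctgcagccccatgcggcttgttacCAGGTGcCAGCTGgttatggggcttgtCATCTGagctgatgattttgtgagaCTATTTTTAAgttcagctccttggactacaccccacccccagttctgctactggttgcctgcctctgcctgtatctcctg

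At the end of the pathway the lactate dehydrogenases did not follow the classes. Ldha, the form that favours lactate production, was at 14.10 and 14.04 on day 0 and 13.70 and 13.65 on day 10, a fall of 0.39 ± 0.07 (1.31-fold, adjusted p = 3.23e-04). Ldhb, the form that favours lactate use, was at 11.54 on both day 0 arrays, 10.16 and 10.07 on day 1, 9.03 and 9.09 on day 3, 9.14 and 8.72 on day 5, 9.37 and 9.22 on day 7, 9.52 and 9.58 on day 10, and 10.05 and 9.96 on day 14. Ldhb fell by 2.61 ± 0.11 on day 5 (6.09-fold, adjusted p = 3.03e-09) and by 1.54 ± 0.11 on day 14. Gpd1, the cytosolic glycerol phosphate dehydrogenase that carries electrons from glycolysis towards mitochondria, was at 12.90 and 12.95 on day 0 and 10.43 and 9.94 on day 5. It fell by 2.74 ± 0.15 on day 5 (6.68-fold, adjusted p = 1.50e-08) and by 1.23 ± 0.15 on day 14.

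Genes of glycogen synthesis fell. Gys1, the muscle glycogen synthase, was at 13.02 and 12.96 on day 0 and 11.94 and 11.69 on day 5, a fall of 1.18 ± 0.12 (2.27-fold, adjusted p = 3.11e-06). Ugp2, which makes the glucose donor for the synthase, fell by 1.38 ± 0.12 on day 10, and Gbe1, the branching enzyme, fell by 1.76 ± 0.15 on day 10 after -0.36 ± 0.15 on day 3 (adjusted p = 0.0671). Gys2, the liver synthase, which is not among the 38, was at a mean of 5.98 on day 0, low on this array, and fell by 0.45 ± 0.15 on day 7 (adjusted p = 0.0193).

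Larger falls were measured in the regulators that hold enzymes to the glycogen particle. Ppp1r3a, the muscle targeting subunit of protein phosphatase 1, was at 12.58 and 12.75 on day 0, 11.37 and 11.50 on day 1, 10.19 and 10.09 on day 3, 10.28 and 9.75 on day 5, 10.53 and 10.16 on day 7, 10.58 and 10.48 on day 10, and 11.39 and 11.36 on day 14. It fell by 2.65 ± 0.16 on day 5 (6.26-fold, adjusted p = 2.79e-08). Ppp1r3c, a widely expressed targeting subunit, fell by 2.81 ± 0.20 on day 5 (7.01-fold, adjusted p = 1.18e-07), and Epm2a, the glycogen phosphatase laforin, by 2.36 ± 0.14 (5.14-fold). Stbd1, which tethers glycogen to membranes, was the 1 shared form that rose on any day. It rose by 0.44 ± 0.12 on day 10 and 0.47 ± 0.12 on day 14 (adjusted p = 0.00503), from uneven day 0 arrays at 7.61 and 7.92. Without the left day 0 array its day 14 difference was 0.31 (adjusted p = 0.0553). Outside the 38 genes, the liver targeting subunit Ppp1r3b, named after its values were seen, rose by 1.08 ± 0.10 on day 1 (adjusted p = 2.58e-06), so the targeting subunits did not all fall.

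Glycogen phosphorylase changed in all 3 of its forms. Pygm, the muscle form, was at 14.22 and 14.15 on day 0, 13.92 and 13.85 on day 1, 13.38 and 13.23 on day 3, 13.27 and 12.90 on day 5, 13.28 and 13.02 on day 7, 13.42 and 13.37 on day 10, and 13.80 and 13.64 on day 14. It fell by 1.10 ± 0.12 on day 5 (2.14-fold, adjusted p = 6.71e-06) and 0.47 ± 0.12 on day 14, and day 1 was not called (adjusted p = 0.0674). Pygl, the liver form, which is also found in leukocytes, was at 8.45 and 8.23 on day 0, 10.27 and 10.06 on day 1, 9.50 and 9.76 on day 3, 9.27 and 9.39 on day 5, 9.04 and 9.02 on day 7, 8.78 and 8.86 on day 10, and 8.52 and 8.60 on day 14. Pygl rose by 1.82 ± 0.11 on day 1 (3.54-fold, adjusted p = 6.94e-08) and by 0.48 ± 0.11 on day 10, and was at 0.22 ± 0.11 on day 14 (adjusted p = 0.109).

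Pygb, the brain form, which is also the form of fetal tissue, had another time course. It was at 9.34 and 9.01 on day 0, 9.02 and 8.87 on day 1, 9.94 and 9.98 on day 3, 10.35 and 10.37 on day 5, 10.42 and 10.48 on day 7, 10.56 and 10.62 on day 10, and 10.29 and 10.41 on day 14. Day 1 overlapped day 0 and every later array lay above it. Pygb rose by 1.42 ± 0.10 on day 10 (2.67-fold, adjusted p = 1.64e-07) and by 1.18 ± 0.10 on day 14, so Pygl was highest on day 1 and Pygb on day 10.

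The promoters of the muscle and liver phosphorylases are shown because both hold ACGTG on one strand or the other (CACGT where it lies on the opposite strand) while their changes had opposite signs. They lie at chr19:6384158-6384407 (plus strand) for Pygm and chr12:70227684-70227933 (minus strand) for Pygl, on GRCm38.p6 from RefSeq, and capitals mark ACGTG and each E-box CANNTG.
Pygm: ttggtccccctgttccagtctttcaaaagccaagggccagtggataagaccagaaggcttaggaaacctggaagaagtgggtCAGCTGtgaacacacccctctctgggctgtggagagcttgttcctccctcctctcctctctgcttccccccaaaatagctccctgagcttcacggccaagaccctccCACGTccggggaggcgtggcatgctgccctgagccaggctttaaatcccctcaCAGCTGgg
Pygl: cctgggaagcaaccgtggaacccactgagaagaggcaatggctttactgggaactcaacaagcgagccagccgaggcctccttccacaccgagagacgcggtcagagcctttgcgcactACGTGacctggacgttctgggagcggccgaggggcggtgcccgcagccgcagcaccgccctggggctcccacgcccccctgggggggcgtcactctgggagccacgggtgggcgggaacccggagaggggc

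RefSeq promoters of 250 bases were found for 35 of the 38 genes, 46 promoters in all, and those printed were chosen after the values were seen. Some genes, among them Pfkm and Aldoa, supplied several promoters. Some of these overlap, so the same site can be counted more than once. ACGTG on either strand was in 9 of 19 promoters of muscle forms (47.4%), 7 of 16 of forms of other tissues (43.8%) and 5 of 11 of shared forms (45.5%), against 16.6% of 32851 mouse promoters. The E-box CANNTG, which reads the same on both strands and covers CACGTG, was in 84.2%, 50% and 72.7%, against 66.2%. A MEF2 motif was in 2 of the 19, those of Ppp1r3a and Pgam2, and in none of the other 27, against 1.69% of all promoters. The sequence TATAAA, searched on the coding strand, was in 1 promoter of the 46, against 7.59% of all. The classes that moved in opposite directions thus held ACGTG in like shares. These are counts of letters, with no test.

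Phosphorylase kinase, which activates Pygm, showed the same division between its muscle and other subunits. Phkg1, the muscle catalytic subunit, was at 12.23 and 12.32 on day 0, 10.75 and 10.67 on day 1, 9.50 and 9.04 on day 3, 9.53 and 8.85 on day 5, 9.70 and 9.36 on day 7, 9.92 and 9.71 on day 10, and 10.80 and 10.70 on day 14. Its fall on day 3 was 8.0-fold (3.0 ± 0.20 on the log2 scale, adjusted p = 8.63e-08), and the 8.46-fold fall on day 5 was the largest of the 38 genes on any day in either direction. Phkg2, the liver and testis catalytic subunit, was at 9.68 and 9.48 on day 0 and 10.21 and 10.17 on day 10, a rise of 0.61 ± 0.09 (adjusted p = 1.30e-04).

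The regulatory subunits divided likewise. Phka1, the muscle alpha subunit, fell by 2.19 ± 0.15 on day 5 (4.57-fold, adjusted p = 8.20e-08). Phka2, the liver alpha subunit, which is not among the 38, fell by 0.37 ± 0.07 on day 1, yet it rose by 0.88 ± 0.07 on day 5 (adjusted p = 5.75e-07). Phkb, the beta subunit shared by tissues, fell by 1.82 ± 0.09 on day 5 (3.53-fold, adjusted p = 1.10e-08).

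The balance within families was tested as the log2 ratio of a muscle form to its relative on the same array, with the mean of the 12 overloaded arrays set against the 2 of day 0. An exact two-sided permutation test over the 91 ways of choosing 2 arrays was used. The smallest p it can give is 0.022. The test treats the arrays as freely exchangeable, while the 2 of a day appear to share animals, so its p-values are likely too small. Of 18 pairs planned 15 could be measured, and p-values were adjusted over those 15. In 10 of them the adjusted p was 0.033, under the threshold, and in these all 12 overloaded arrays lay on one side of both day 0 arrays. How often pairs of unrelated genes did so was not counted, so this count has no background.

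In 9 of the 10 the ratio moved away from the muscle form. It fell by 3.26 for Slc2a4 to Slc2a1, 3.09 for Pgam2 to Pgam1, 2.86 for Phkg1 to Phkg2 and 2.38 for Phka1 to Phka2. The phosphofructokinase ratios fell by 2.21 for Pfkm to Pfkp and 2.17 for Pfkm to Pfkl, with SDs within a day of 0.185 and 0.171. Pygm to Pygl fell by 1.67, Hk2 to Hk3 by 1.38 and Slc16a3 to Slc16a1 by 0.39. The 1 ratio that rose was Ldha to Ldhb, by 1.78, with an SD within a day of 0.112. Ldha was read close to the top of the array's range, where falls can be compressed, so the size of this rise is uncertain.

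By day, the Pfkm to Pfkl ratio stood at -2.40, -2.98, -2.68, -2.25, -1.78 and -0.95 relative to day 0 on days 1, 3, 5, 7, 10 and 14. The Slc2a4 to Slc2a1 ratio stood at -4.71 on days 1 and 3 and came back to -1.06 on day 14. The Pygm to Pygl ratio was at -2.12 on day 1 and -0.69 on day 14, while Pygm to Pygb was at -0.07 on day 1, -2.31 on day 7 and -1.64 on day 14. The 2 phosphorylase ratios thus differed in when they fell.

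The other 5 pairs did not pass. Pygm to Pygb changed by -1.70 over the 12 arrays (exact permutation, adjusted p = 0.0761), and by -2.02 with day 1 left out. The day 1 arrays were the only overloaded ones not below both day 0 arrays. Without them the test must give its smallest p, so it decides nothing. Slc2a4 to Slc2a3 changed by -1.57 (exact permutation, adjusted p = 0.0761), Aldoa to Aldoc by -0.54 (exact permutation, adjusted p = 0.0942) and Gys1 to Gys2 by -0.58 (exact permutation, adjusted p = 0.0599). Hk2 to Hk1 changed by -1.13 (exact permutation, adjusted p = 0.22), with 10 of the 12 arrays below day 0 and the 2 of day 1 above. With the same probe set and day 1 left out it changed by -1.51, and there too the smallest p was fixed by the arrays left out. With the RefSeq probe set of Hk1 and all 12 arrays it changed by -1.96, lower on 12 of 12 (exact permutation, adjusted p = 0.03).

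**Figure D4:**
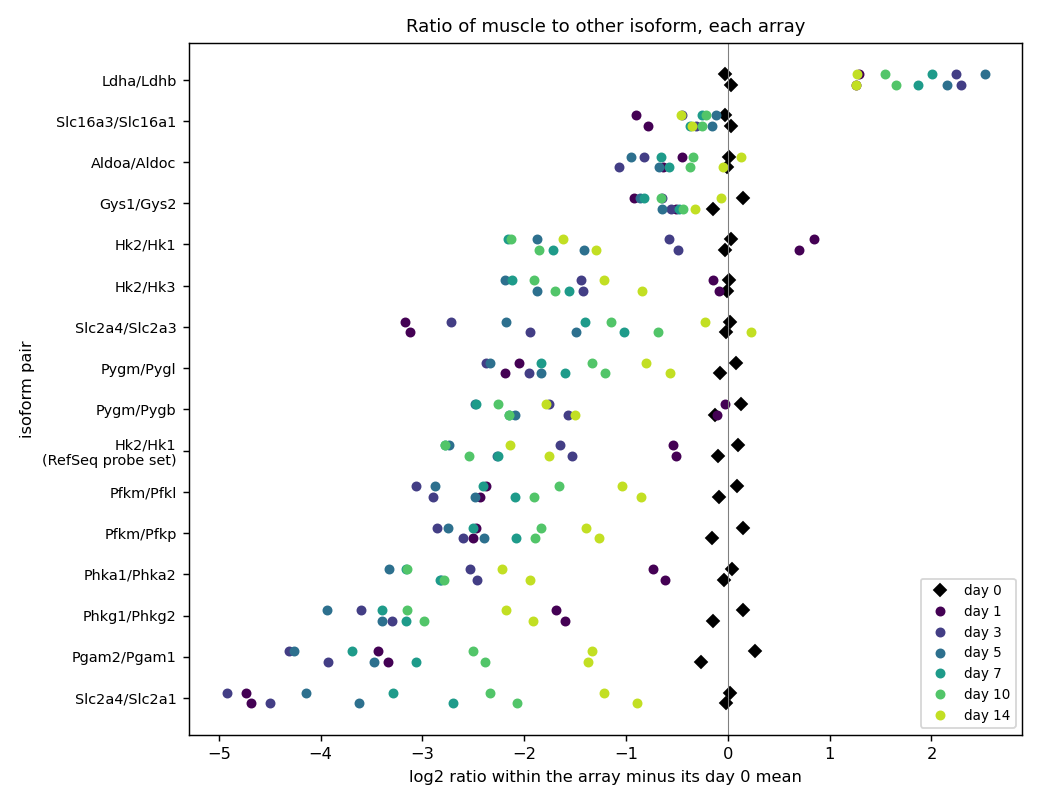
Log2 ratio of the muscle form to the other form within each array, minus its day 0 mean (horizontal axis), for 15 isoform pairs and the Hk2 to Hk1 ratio with the RefSeq probe set (vertical axis). Diamonds are day 0 arrays and circles overloaded arrays, coloured by day, with the left array drawn below the right one. Circles lie left of both diamonds on 12 of 12 arrays for 9 pairs, among them Slc2a4 to Slc2a1, and right of them for Ldha to Ldhb.

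Other genes of these pathways came from a list of 53, of which 48 were measured. On day 5, 11 of the 48 rose and 33 fell, with a median of -0.44, where 26.4% of all genes rose and 33.7% fell. On day 14, 10 rose and 31 fell (22.9% and 30.5% of all genes). Slc2a12, a further glucose transporter of muscle and fat, fell by 2.38 ± 0.11 on day 1 (5.20-fold) and 1.61 ± 0.11 on day 14. Slc37a4, the glucose phosphate transporter of the endoplasmic reticulum, fell by 2.24 ± 0.12 on day 3, and Mlxipl, the glucose-sensing transcription factor ChREBP, by 2.08 ± 0.14 on day 5. Subunits of the energy sensor AMPK fell, Prkag3 by 2.08 ± 0.09 on day 3 and Prkaa2 by 1.91 ± 0.13 on day 5. Tbc1d4, a brake on the delivery of GLUT4 to the surface, fell by 1.93 ± 0.07 on day 1. Hif1a, the oxygen-sensitive factor that induces many glycolytic genes, rose on all days, by 1.91 ± 0.10 on day 5 (3.76-fold, adjusted p = 1.25e-08) and 1.44 ± 0.10 on day 14.

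Branches that draw sugar away from glycolysis were read as well. Of 12 measured genes of the pentose phosphate and hexosamine pathways 9 rose and none fell on day 1 (22.3% and 22.6% of all genes), and 6 rose and 1 fell on day 5 (26.4% and 33.7%). Pgd, a dehydrogenase of the pentose pathway, rose by 1.67 ± 0.11 on day 3 (3.19-fold, adjusted p = 6.65e-08), and Pgm3, of the hexosamine pathway, rose by 1.08 ± 0.10 on day 7. Rpia, a pentose isomerase, fell by 1.04 ± 0.08 on day 7.

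Markers of cell types changed over the same days. The 20 muscle fibre markers had a mean log2 signal of 13.71 and 13.76 on the day 0 arrays, 13.06 and 12.71 on day 5 and 13.47 and 13.49 on day 14. Of these markers 19 fell on day 5, with a median of -0.73 and a range of -1.46 to -0.11, and 8 fell on day 14, with a median of -0.20. Most fibre markers were read near the top of the array's range, so the sizes of their falls cannot be set against those of the dimmer muscle forms.

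Markers of several other cell types rose. All 8 neutrophil markers rose on day 1, with a median of 2.62, and their mean signal went from 9.0 and 8.52 on day 0 to 11.56 and 11.44. All 13 macrophage and monocyte markers rose on day 3, with a median of 2.79, and their mean went from 9.18 and 8.77 to 11.78 and 11.73. Of 9 fibroblast markers 8 rose on day 5, with a median of 2.73, and their mean went from 10.15 and 9.91 to 12.23 and 12.24; on day 1, 4 of the 9 rose and 4 fell. All 7 measured markers of dividing cells rose on day 5, with a median of 2.70, and all 6 satellite cell and myoblast markers rose on day 10, with a median of 1.96. Other lists fell or were mixed. On day 1 all 5 measured adipocyte markers, 5 of 7 endothelial markers and 4 of 6 smooth muscle and pericyte markers fell, and all 3 measured red blood cell markers fell on days 10 and 14. On day 5, 4 endothelial markers rose and 2 fell, and 3 smooth muscle and pericyte markers rose and 2 fell. The files carry no detection calls, so no marker can be called absent. The part that these cells had in the rise of Hk3, Pfkl, Pfkp, Pygl, Slc2a1 and the like, or in the fall of the muscle forms, was not tested.

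The sides differed on day 0 and on the overloaded days. The lowest r between sides, 0.994, was that of day 0. Left and right marker means on that day were 8.40 and 7.51 for dividing cells and 9.18 and 8.77 for macrophages and monocytes. For muscle fibres they were 13.71 and 13.76. Of the 15 muscle forms 11, 14, 15, 13, 13 and 14 were lower in the right pool than in the left on days 1, 3, 5, 7, 10 and 14, against 6 on day 0. Of the 9 shared forms 2, 7 and 5 were lower on the right on days 0, 1 and 3. On each of days 5, 7, 10 and 14, 8 of them were. Of the 14 forms of other tissues 9, 11 and 4 were lower on days 0, 1 and 3. On days 5, 7, 10 and 14, 5, 8, 9 and 6 of these were lower. The share of all genes lower on the right was not counted. On day 5 the muscle forms had a median right minus left difference of -0.371, and the fibre markers had a lower mean on the right too. That median was -0.287 on day 7 and between -0.067 and -0.142 on days 1, 3, 10 and 14. The falls are therefore means of unequal arrays, and the part of the difference between sides in them was not tested.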

How the data were processed

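Each of 14 pools of plantaris RNA was read on an Affymetrix Mouse Gene ST array. The authors deposited log2 signals per probe set, already normalized between arrays. Partek is named in the submitters' processing notes, and for the normalization method these say nothing (not given in the sources used here). The deposited table has 35557 probe sets, of which 21789 carry 1 gene symbol, 1621 several and 12147 none. Each gene was read from its probe set with the highest mean signal, which gave 19938 genes. Groups were the 7 days, with 2 arrays each. All arrays entered 1 fit in limma 3.58.1 (R 4.3.3; lmFit, eBayes, two-sided), with 7 residual and 4.95 prior degrees of freedom, and p-values were adjusted by Benjamini-Hochberg over all genes. The median SE of a difference was 0.0974. Ratios of isoforms were compared with exact permutation tests.

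The genes, lists and tests were chosen with earlier results of these data known, so the choice is not independent of them. All measured genes of the list are named. Of further pathway genes, those with a called log2 difference of at least 1 on any day are named, at most 8 a list by size, with the partners of each ratio. On simulated data for day 3 the fit called 8%, 64%, 90% and 100% of 50 genes each changed by 0.25, 0.5, 1 and 2, with 10 false calls among 19938 genes. Alternatives were other normalizations, probe set rules, filters, thresholds, variance models, arrays in the fit, the side as a block and leaving out each array.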

Additional observations from a re-analysis of the deposited data

How the results depend on the processing

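Under no alternative run did the largest difference of a gene, or a ratio change over the overloaded arrays, change sign. Single days were not all so stable. The Hk2 to Hk1 ratio of day 1 stood at 0.78 relative to day 0 with the brighter Hk1 probe set and at -0.52 with the RefSeq one. Pkm on day 1 was at -0.04 ± 0.09 (not called) with the probe set used. Its other probe set was at 0.19 ± 0.07 (limma, adjusted p = 0.0365). Counts of genes called stayed within 1.5 times in 388 of 389 values, and the largest difference of each gene kept its call in 874 of 875, Stbd1 without the left day 0 array being the exception. The count of genes lower on day 14 than on day 5 ran from 6 (without the right day 5 array) to 10. Quantile normalization brought the change of the Gys1 to Gys2 ratio to -0.72 (exact permutation, adjusted p = 0.03). Leaving out 1 array at a time, that ratio ran from -0.73 to -0.43 and passed without the right day 14 array (-0.62). Aldoa to Aldoc ran from -0.60, which passed without the same array, to -0.49, and Slc2a4 to Slc2a3 from -1.74, which passed without the left day 14 array, to -1.43. With day 1 left out, Hk2 to Hk1 was at -1.51 and Pygm to Pygb at -2.02. In each pass with arrays left out, those left out were the only overloaded arrays not below both day 0 arrays. Such a pass followed from the choice of arrays. With the RefSeq probe set of Hk1, an alternative added after the data were seen, Hk2 to Hk1 was at -1.96 and passed. The causes were not tested. Without a day 0 array the exact test cannot go below p = 0.154, so those values have no test.

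Left and right carry numbers shared by all days, but deviations of like sides correlated at -0.185 to 0.354 (median 0.066, over 0.1 in 6 of 21 pairs of days), so the numbers were not taken to pair samples. Most muscle forms were still lower on the right on each overloaded day, and the main fit leaves that difference in its spread. With side as a replicate block, 17 genes in place of 15 fell on day 1, and the counts of day 5 were again 9 and 28. Setting the median difference of all genes to 0 moved arrays by at most 0.151. The number of arrays limits precision, changes of 0.25 were mostly missed on simulated data, and signals near the top of the range may be compressed.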
